A study of Mus musculus with 6 samples.

Results

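Among the abundant protein-coding loci of mouse embryonic stem (ES) cells, 301 stayed within 1.3-fold over all 6 libraries of the series, from undifferentiated cells to embryoid bodies. This holds for the values as scaled by the authors, and 102 of the 301 also did so under each of 6 other scalings. The 301 loci were chosen by their measured values. A locus entered if it holds a transcript that matches an annotated one and a protein identifier, lies on neither X nor Y, had a mean of at least 10000 normalized counts, and had a largest value under 1.3 times its smallest. The 50 loci of largest mean were left out. These 301 are 11.1% of the 2708 loci that meet every other part of the rule, called the abundant coding loci below, 2.19% of the 13764 coding autosomal loci in the count table and part of 18420 loci in all. Steadiness and level are therefore what the rule used, and their values are given as a description with no test. Structure, position and the dependence on the scaling of the libraries were not part of the rule.

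The day 0 group is 3 libraries of undifferentiated cells and the day 6 group 3 libraries of embryoid bodies, cell aggregates formed in hanging drops, harvested 6 days after cardiac differentiation was induced. All came from an Nkx2.5-EmGFP BAC reporter line, in which a fluorescent protein reports on a gene of early heart cells, kept in medium with LIF on fibroblast feeders or on gelatin. It is a single line, given as E14Tg2A.4 of strain 129/OlaHsd by the growth protocol and as strain C57BL/6J by the sample labels, which do not settle the matter. The design text calls the 3 libraries per stage biological replicates, and nothing says that they came from separate cultures, so p-values measure the spread between these libraries. Which day 0 libraries had feeders was not stated in the labels used here.

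Genes that are abundant and steady across cell states are commonly called housekeeping genes. Many encode parts of the machinery that every cell needs, such as translation, splicing, protein folding and turnover, and the cytoskeleton, and some serve as reference genes against which others are measured. Steadiness in sequencing data is always relative: read counts are divided by a size factor per library, and a common way to set it, the median of ratios, takes the typical locus as unchanged. A locus that keeps its share of a changing total, and one that does not change per cell, cannot be told apart from read counts alone.

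Identifiers in the 2 files matched 0 entries of the gene name tables, so loci are named by the assembly's own identifiers, with positions on mm9. For the same reason the labelled cell types could not be checked against their markers, and which steady loci are known housekeeping genes was not determined. Libraries held 106306699 to 114092201 counted reads. At the level of the steady loci counting error is small: a locus's counting error was 0.326 to 0.997% of its mean per library, with a median of 0.733%. Reads were counted without molecular identifiers, so these figures cover counting error only.

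The steady loci ranged from 10010 to 94063 normalized counts in mean, with a median of 18480. Their ratio of largest to smallest value had a median of 1.23 and ran from 1.07 up to the limit. The largest value was less than 10% above the smallest for 9 loci, less than 15% for 45, less than 20% for 106 and less than 25% for 189, and the other 112 lay between 25 and 30%. The coefficient of variation over the 6 libraries had a median of 7.64%, with 2.63% as the lowest and 11.2% as the highest value. Among the other abundant coding loci the median ratio was 1.77 and the median coefficient of variation 22.5%.

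XLOC_020151 had the smallest ratio, 1.07. This locus (chromosome 2, 157104834 to 157152056, plus strand) has up to 17 exons in 3 transcript models and 2721 exonic bases. Its values were 41518, 39652 and 39073 normalized counts in day 0 replicates 1, 2 and 3, and 41172, 41956 and 41351 in day 6 replicates 1, 2 and 3. The stages overlapped, with day 0 replicate 1 among the day 6 values. XLOC_001183 (chromosome 1, 95192435 to 95240752, minus strand) followed with 23030, 23332 and 22614 at day 0 and 22556, 22065 and 21727 at day 6. All 3 day 6 values of this locus lay below those of day 0, by a ratio of stage means of 0.962. The gap between the stages, a few percent, was of the order of the spread within each.

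The next 4 in order were XLOC_008795, XLOC_032200, XLOC_037310 and XLOC_024523, with ratios of 1.08 to 1.09. XLOC_008795 (chromosome 13, 63914622 to 64003143, plus strand) had 11002, 11251 and 11617 normalized counts at day 0 and 11670, 11708 and 11912 at day 6. XLOC_037310 (chromosome 9, 50434546 to 50556694, minus strand) has 27 transcript models and up to 38 exons. It stood at 16826, 17681 and 17275 at day 0 and at 17664, 18229 and 17412 at day 6, so that the stages overlapped. XLOC_032200 (chromosome 7, 117261437 to 117291986, plus strand) lay between 12061 and 13060 and XLOC_024523 (chromosome 4, 108671051 to 108746316, plus strand) between 37155 and 40455. These 6 loci lie on 6 different chromosomes and have between 3 and 27 models and up to 11 to 38 exons.

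At the top of the range, XLOC_016729 on chromosome 18 (35278522 to 35414673, plus strand) had 84934, 105205 and 89399 normalized counts at day 0 and 99818, 100011 and 85011 at day 6. XLOC_023069 (chromosome 3, 37613112 to 37627097, minus strand) had 85587, 103396 and 83919 at day 0 and 95095, 100062 and 82664 at day 6. Both were highest in day 0 replicate 2 and lower in day 6 replicate 3 than in the other day 6 libraries. The third, XLOC_005375 on chromosome 11 (40514889 to 40582033, minus strand), was instead highest in day 0 replicate 1, at 105692, and its day 6 values, 81710 to 91660, lay under all those of day 0. At the lower end stood XLOC_029998 (chromosome 6), XLOC_011145 (chromosome 14) and XLOC_021480 (chromosome 2), with means of 10010, 10067 and 10189. XLOC_011145 was low in day 0 replicates 2 and 3, at 8998 and 8876, and at 10328 to 10760 in the other 4 libraries.

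The libraries that set the ratio were mostly those of undifferentiated cells, in the steady loci as in all abundant coding loci. Day 0 replicate 2 was the highest library for 95 of the 301 loci, and for 1016 of the 2708 abundant coding loci. Day 0 replicates 1 and 3 were the lowest for 83 each of the 301, and for 1020 and 466 of the 2708. Day 6 replicate 2 was the highest for 54 and the lowest for 12 of the 301, against 573 and 183 of the 2708. The rule used these values, so the counts are a description. Over the 301 loci, the median deviation of a library from the locus's own mean was -0.05 on the log2 scale in day 0 replicate 1, 0.04 in day 0 replicate 2 and -0.02 in day 0 replicate 3, and between -0.01 and 0.03 in the day 6 libraries. For all abundant coding loci it was -0.19, 0.10 and -0.07 at day 0 and between 0.03 and 0.07 at day 6. In sum the steady loci took 7.31, 6.45 and 6.87% of the normalized counts at day 0 and 6.37, 6.38 and 6.48% at day 6. Their summed values ran from 7205320 to 7596670 normalized counts and were lowest in day 0 replicate 1, where their share was highest. That library also had the smallest normalized total.

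**Figure D1:**
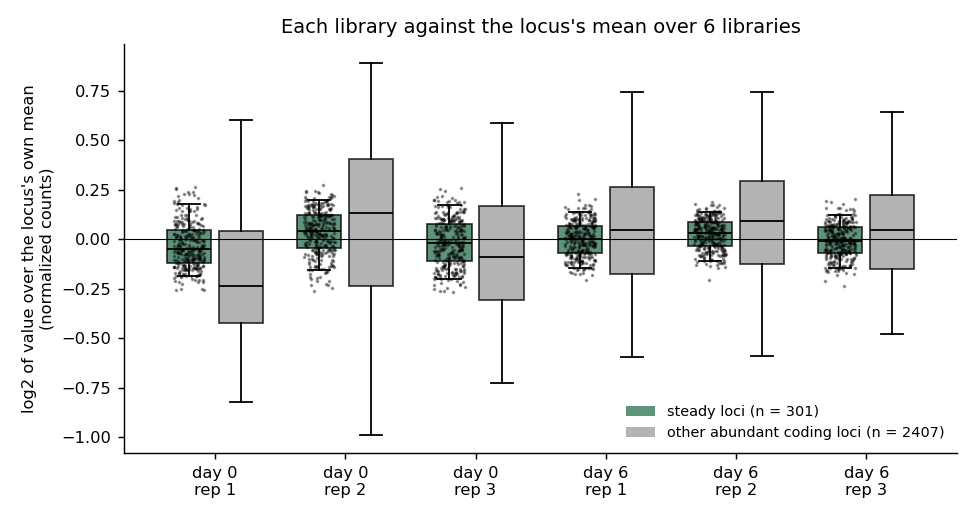
Log2 of the value of each library over the locus's mean, for the 301 steady loci (green boxes with 1 point per locus) and the 2407 other abundant coding loci (grey boxes). Boxes hold the middle of the loci with the median as a line, and whiskers span the 5th to the 95th percentile. In day 0 replicate 1 the grey median lies clearly under 0 while the green one, at -0.05, is near it.

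Fewer abundant coding loci kept within 1.3-fold among the day 0 libraries than between stage means. Of the 2708 abundant coding loci, 2562 (94.6%) had a largest over smallest value under 1.3 within day 6, 1419 (52.4%) had stage means within 1.3-fold of each other, and 934 (34.5%) had a ratio under 1.3 within day 0. The bound held within day 6 and between stage means, but not within day 0, for 878 loci. All 3 conditions held for 522, of which 221 still spread over more than 1.3-fold when all 6 values were compared. Means of 3 libraries vary less than single values, so the bounds within and between stages are not alike. Under the other scalings 913 to 1193 loci met the bound within day 0 and 1362 to 1458 between stage means. Within the steady set the median ratio was 1.16 among day 0 and 1.07 among day 6 libraries. In the plot of day 0 spread against the ratio of stage means, the steady loci reach the limit on the day 0 axis, at 1.297, and stay well inside it on the other.

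**Figure D2:**
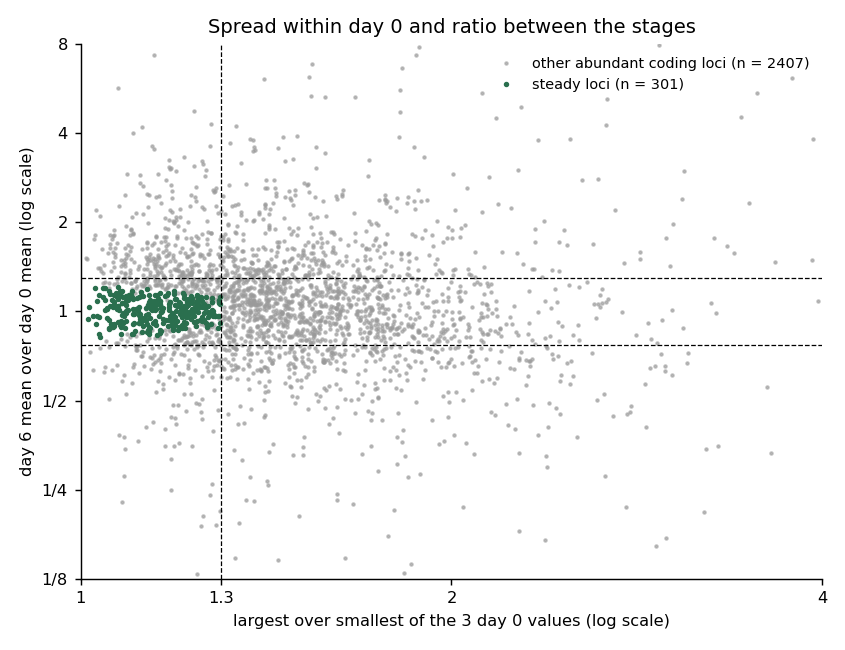
Largest over smallest of the 3 day 0 values (horizontal, log scale) against day 6 mean over day 0 mean (vertical, log scale), 1 point per locus, with the 301 steady loci in green and the others in grey. Dashed lines mark 1.3-fold, and 51 loci lie outside the axes. Steady loci reach stage ratios of 0.821 to 1.21 only, since all 6 values had to fit within 1.3-fold.

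The libraries are bulk RNA of mixed cells, in which fewer cells of a type and less RNA per cell cannot be told apart. The ratio of day 6 to day 0 means in the steady loci had a median of 1.01, and was above 1 for 165 and below 1 for 136. For 199 of them the stage means were within 10% of each other. In the fit of day 6 against day 0 over all 17145 tested loci, 44.0% of loci passed an adjusted p of 0.05 (limma with Benjamini-Hochberg adjustment), and none of the 301 steady loci did. At an unadjusted p under 0.05 limma counted 2 of the 301, against 8865 of all 17145 tested loci. edgeR called 0 of the 301 (6 unadjusted), against 7583 (8939 unadjusted) of 17239 tested loci. DESeq2 called 1 of the 301 (5 unadjusted), against 8311 (9233 unadjusted) of 17239. The rule limits this same contrast, so nothing is read from these counts. The lowest limma adjusted p was 0.0724, for XLOC_022391, at a log2 change of -0.29 (SE 0.11, lower at day 6). The 95% interval of the log2 change lay wholly inside 1.3-fold in either direction (0.38 on the log2 scale) for 129 loci. For the other 172 it reached beyond. The fit draws each locus's variance toward a trend over all tested loci. The width of these intervals therefore does not reflect the spread of the steady loci alone. The stages did not overlap for 93 steady loci (30.9%), against 57.3% of all tested loci, a share that the rule also limits.

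The limit of 1.3 does not mark a gap. Just inside it lay XLOC_033283 (chromosome 7, 105734621 to 105816729, minus strand), with 17480, 17972 and 15582 normalized counts at day 0 and 14605, 14191 and 13825 at day 6. Its stages do not overlap, and its ratio was 1.2999. XLOC_025143 (chromosome 4) and XLOC_001393 (chromosome 1) followed, with ratios of 1.2998 and 1.2992. XLOC_025143 was at 22489, 22018 and 27551 at day 0 and 27496, 28619 and 24778 at day 6, and XLOC_001393 at 15276, 14479 and 12396 and at 15418, 15190 and 16105. Just outside lay XLOC_019143 (chromosome 2) and XLOC_023310 (chromosome 3), at 1.30007 and 1.30011, and XLOC_004587 (chromosome 11) at 1.303. With these 3, 103 abundant coding loci had a largest value 30 to 35% above the smallest.

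Steady loci had more exons and more exonic sequence than the other abundant coding loci. The model with the most exons had a median of 20 exons (quartiles 12 and 30), against 16 (10 and 24) in the others and 10 (6 and 17) over all coding autosomal loci. Their exonic sequence, counted once where models overlap, had a median length of 11949 bases against 9954 and 7174. At least 30 exons were found in 78 of the 301 (25.9%) and in 375 of the 2407 others (15.6%), and none of the 301 has a single exon. The stretch of genome from first to last exon differed less, with a median of 59397 bases in the steady loci and 51534 in the others. These measures take in models assembled from these same reads, beside the annotated ones. They are descriptions of whole lists with no test across loci.

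Read by classes of exon number, the share of steady loci among abundant coding loci was 6.96% with under 10 exons, 9.3% with 10 to 19, 14.0% with 20 to 29 and 17.2% with 30 or more. With the deposited values the share was also higher with many exons within each class of level. From under 10 to at least 30 exons it went from 7.43 to 19.3% at means under 15000, from 7.69 to 14.7% between 15000 and 30000, and from 4.31 to 18.9% above. In the middle class the highest share, 15.3%, was that of 20 to 29 exons. Spearman's rho between exon number and the ratio was -0.14 over the 2708 loci, and between exon number and the mean level it was 0.14. The loci share the same libraries and are not independent.

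XLOC_004772 on chromosome 11 (78075256 to 78162662, plus strand) has the most exons of the set, 95, in 25 models. It stood at 86914, 100804 and 93391 normalized counts at day 0 and at 78634, 81383 and 78061 at day 6, with every day 6 value under every day 0 value. XLOC_031691 on chromosome 7 (63305496 to 63489978, plus strand) has 93 exons and XLOC_025572 on chromosome 4 (118031508 to 118111642, minus strand) 82. XLOC_031691 lay at 21203, 21356 and 19747 at day 0 and 19515, 20144 and 21791 at day 6, with overlapping stages. Several loci have no more than 3 exons in any model, the fewest of the set, and the 3 steadiest of these were XLOC_000507 (chromosome 1, 135024317 to 135036582, plus strand), XLOC_013763 (chromosome 16, 64851911 to 64859317, plus strand) and XLOC_025714 (chromosome 4, 132084454 to 132107058, minus strand). XLOC_000507 had 28777, 27770 and 27048 at day 0 and 29978, 28757 and 30999 at day 6. XLOC_025714 has 20040 exonic bases in those few exons. Its values, 22235 to 23565 at day 0 and 21549 to 26242 at day 6, overlapped between stages.

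Isoform number went the same way as exon number. Transcript models of this assembly are called matching where they equal an annotated transcript, intron by intron, and new isoforms where they share at least 1 splice junction with one. Models of other kinds are counted only in the total. Steady loci had a median of 9 models (quartiles 5 and 16), of which a median of 4 matched and 5 were new, against 7 (4 and 13) with 3 and 4 in the other abundant coding loci. A single model was found for 5 of the 301 (1.66%) and 129 of the 2407 others (5.36%), and 20 or more for 50 (16.6%) and 245 (10.2%). New models outnumbered matching ones in 160 steady loci (53.2%) and in 1177 of the others (48.9%). The median number of transcription start groups, models that share a start, was 4 against 3, and of protein identifiers 3 against 2.

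The share of steady loci was higher the more models a locus has, at 7.6% with under 5, 10.8% with 5 to 9, 12.6% with 10 to 19 and 16.9% with 20 or more. Exon and model number go together, with Spearman's rho of 0.54 over the 301 loci and 0.51 over the others. Among loci with 30 or more exons the share went from 14.3% (3 of 21 loci) with under 5 models to 22.6% (31 of 137) with 20 or more. With 20 to 29 exons it went from 9.88 to 18.6% over the same classes. With 10 to 19 exons it was 7.59, 10.4 and 10.5% in the first 3 classes and 4.84% (3 of 62) with 20 or more models. Among those with under 10 exons it was 6.7% with under 5, 7.22% with 5 to 9 and 8.33% with 10 to 19 models, and 0 of 10 loci with more. New models were assembled from these same reads. The number of models had a Spearman's rho of 0.12 with the mean level over the 2708 loci, and the part of read number in the number of models was not tested.

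**Figure D3:**
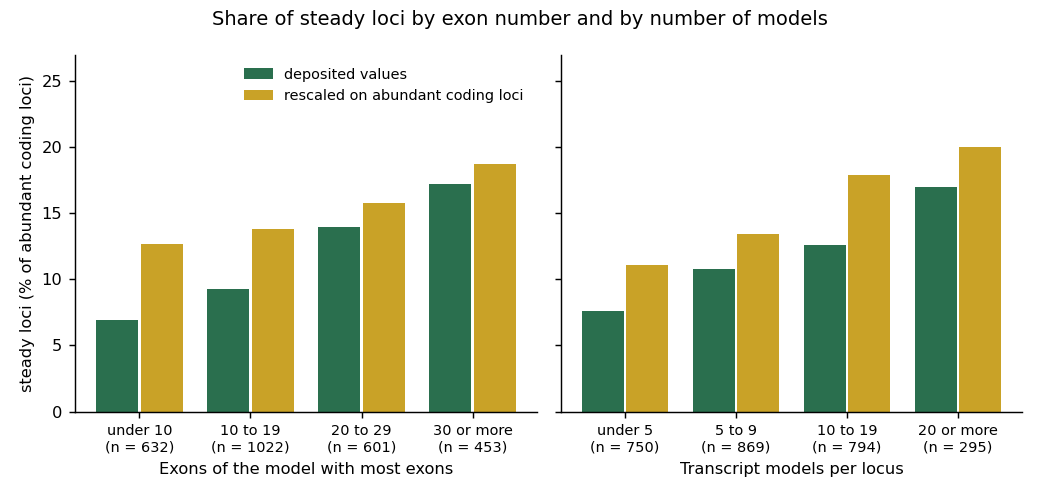
Percentage of abundant coding loci that were steady, by exons of the model with most exons (left) and by transcript models per locus (right), with the number of loci under each class. Green bars use the deposited values and gold bars values rescaled on the abundant coding loci alone. The green bars climb from 6.96 to 17.2% with exon number, and the gold ones from 12.7 to 18.8%.

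The locus with the most models was XLOC_015509 on chromosome 17 (24184687 to 24388609, minus strand), with 56 models, 30 of them matching, 16 start groups and 20 protein identifiers. Its values were 80393, 91297 and 87777 normalized counts at day 0 and 71771, 75177 and 74750 at day 6, which do not overlap. XLOC_034561 on chromosome 8 (73796613 to 73905892, plus strand) has 45 models and XLOC_015526, also on chromosome 17 (25019553 to 25097698, minus strand), has 36. XLOC_015526 had 40517, 46125 and 39606 at day 0 and 40924, 43921 and 41685 at day 6, a ratio of stage means of 1.00. XLOC_023518 (chromosome 3, 132323462 to 132346843, minus strand), XLOC_013943 (chromosome 16, 17925304 to 17928312, minus strand) and XLOC_018239 (chromosome 19, 4007505 to 4012725, minus strand) have 1 model each, the annotated one. XLOC_023518 was at 15626, 17138 and 18425 at day 0 and 17501, 17837 and 16216 at day 6. Counts are per locus, so how reads were divided among the isoforms of a locus, and whether that division was steady, was not measured here.

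Per kilobase of exonic sequence the steady loci had a median of 1702 normalized counts (quartiles 928 and 3111), against 2084 (1108 and 4152) in the others. The medians of the mean level were close, 18480 and 18347, and those of exonic length were 11949 and 9954 bases. The gap thus restates the longer exonic sequence and is no separate result on abundance. Exonic length here includes bases of new models and bases in exons of other loci. XLOC_000731 on chromosome 1 (182499106 to 182531641, plus strand) had the highest value, 22444 per kilobase over 4085 exonic bases. Its 6 values were 88984, 97962 and 102459 normalized counts at day 0 and 89898, 90137 and 80665 at day 6. XLOC_016729, at 18103, and XLOC_004530 on chromosome 11 (54679940 to 54684543, plus strand), at 15949 per kilobase, came next. The lowest were XLOC_018295 on chromosome 19 at 152, XLOC_015166 on chromosome 17 at 223 and XLOC_024996 on chromosome 4 at 250.0 per kilobase. These last 3 have 79600, 45782 and 48686 exonic bases, with 52.0, 69.0 and 52.1% of them in exons of other loci.

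The treatment of reads in shared exons, and the use of strand, were not given in the sources used here, which leaves values uncertain where loci share much sequence. No exonic base was shared with another locus, on either strand, for 174 of the 301 steady loci (57.8%) and 64.6% of the others. Over 10% was shared for 79 steady loci (26.2%), against 21.5% of the others and 31.4% of all coding autosomal loci. Over 50% was shared for 13 steady loci (4.32%), against 4.28% of the others and 14.7% of all coding autosomal loci. XLOC_022702 on chromosome 3 (95427569 to 95490805, plus strand) shares the most, 91.1%, followed by XLOC_005671 on chromosome 11 (75859728 to 76212643, minus strand) with 81.7% and XLOC_015199 on chromosome 17 (56215660 to 56250386, plus strand) with 73.5%. Of all steady loci 222 share at most 10% of their exonic bases.

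Steady loci lay on each of the 19 autosomes. Chromosome 7 held the most, 30 of its 171 abundant coding loci (17.5%), followed by chromosome 4 with 28 of 183 (15.3%), chromosome 2 with 25 of 213 (11.7%) and chromosome 11 with 24 of 238 (10.1%). Chromosome 18 had 14 of only 84 (16.7%). The lowest share was that of chromosome 10, with 8 of 150 (5.33%), and chromosome 15 had 8 of 123 (6.5%). The order was partly kept when the libraries were rescaled on the abundant coding loci: chromosome 7 then had 39 steady loci (22.8%), chromosome 18 had 17 (20.2%) and chromosome 2 had 43 (20.2%), while chromosome 1 went from 10.8 to 8.65% and held the lowest share. Differences between chromosomes were not tested.

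In the order of coding loci along the chromosomes, 10 pairs of steady loci, made of 19 loci, were direct neighbours. A steady neighbour was found for 6.31% of steady loci and 4.86% of the other abundant coding loci, and an abundant coding neighbour for 37.9 and 39.5%. On chromosome 15, 3 steady loci follow each other: XLOC_012928 (99450769 to 99482281, minus strand), XLOC_012293 (99501149 to 99555581, plus strand) and XLOC_012931 (99566023 to 99602946, minus strand). Their profiles differ. XLOC_012931 was higher at day 6, with 12881 to 13300 normalized counts against 10406 to 11164, a ratio of 1.21 and the highest of the set, whereas XLOC_012293 was highest in day 0 replicate 3 at 31042 and lay at 23912 to 28236 elsewhere. The highest library thus differed between these neighbours.

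Loci that start head to head can share a promoter region. Another locus of the assembly starts on the opposite strand within 1 kb of the start of 44 steady loci (14.6%), against 12.9% of the other abundant coding loci and 12.0% of all coding autosomal loci. For 30 (9.97%) that locus is coding, against 7.48 and 7.42%. In 2 of the pairs of neighbours both partners are steady and the starts are this close. XLOC_013953 and XLOC_013566, on chromosome 16 at 18780537 to 18812554 (minus strand) and 18811897 to 18835723 (plus strand), start 657 bases apart and overlap. The first had 12698, 12723 and 11062 normalized counts at day 0 and 10786, 11718 and 11227 at day 6, and the second 11311, 11392 and 10767 at day 0 and 9827, 10365 and 10213 at day 6. Both were highest in day 0 replicate 2 and lowest in day 6 replicate 1. XLOC_015914 (minus strand) and XLOC_015164 (plus strand), on chromosome 17 from 47624551 to 47640708 and from 47641306 to 47739435, start 598 bases apart. In this pair XLOC_015914 was highest in day 0 replicate 1, at 12595, and XLOC_015164 in day 6 replicate 1, at 21345.

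The remaining pairs lie on 5 chromosomes. They are XLOC_000762 with XLOC_001549 and XLOC_001562 with XLOC_000778 on chromosome 1, XLOC_023583 with XLOC_022952 on chromosome 3, XLOC_027622 with XLOC_026818 on chromosome 5, XLOC_029500 with XLOC_029501 on chromosome 6 and XLOC_032415 with XLOC_033668 on chromosome 7. XLOC_000762 and XLOC_001549 overlap at their ends by 3994 bases, and 26.9 and 38.9% of their exonic bases lie in exons of other loci. The pair on chromosome 6 is the only one on 1 strand, with 362 bases between the end of XLOC_029500 (113187818 to 113231386) and the start of XLOC_029501 (113231749 to 113298028). XLOC_029500 had 10379, 10073 and 10102 at day 0 and 11414, 11139 and 10511 at day 6, and XLOC_029501 had 14944, 17802 and 14500 and 14649, 15896 and 16060. The longest steady locus, XLOC_030236 on chromosome 6 (84568480 to 85019507, minus strand), spans 451028 bases with 1.59% of them exonic, and the shortest, XLOC_013943, 3009 bases. XLOC_030236 had 10556, 11930 and 10406 at day 0 and 11665, 11656 and 11468 at day 6, and XLOC_013943 had 11025, 12601 and 12564 and 11297, 13183 and 12566. The stages of both overlapped. XLOC_015719 (chromosome 17), with 397995 bases, was second in length.

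Which loci count as steady depended on the size factors. At day 0 the deposited size factors stood at 1.15, 0.966 and 1.00 in the order of the replicates, and at day 6 at 0.986, 0.975 and 0.958. Median-of-ratios factors recomputed over all loci of the table gave the same numbers, to within 5.66e-09%. Recomputed over the 2708 abundant coding loci alone, they became 1.01, 1.04 and 0.957 at day 0 and 1.01, 1.03 and 0.981 at day 6. The largest change was in day 0 replicate 1, whose factor was 12.1% lower, followed by day 0 replicate 2, at 7.69% higher.

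This gap goes with a trend along the level of loci. In day 0 replicate 1 the median log2 deviation from a locus's mean was 0.30 among loci under 100 normalized counts, 0.19 from 100 to 1000, -0.00 from 1000 to 3000, -0.13 from 3000 to 10000, -0.20 from 10000 to 30000 and -0.19 above 30000. Day 0 replicate 2 ran the other way at high levels, with -0.09 from 1000 to 3000 and 0.20 above 30000. The day 6 libraries stayed within -0.02 and 0.11 above a level of 1000. The deposited factors centre each library over loci of all levels. In day 0 replicate 1 the steady loci, with a median of -0.05, lay nearer to their means than all abundant coding loci did, with -0.19, and the rule used these values.

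**Figure D4:**
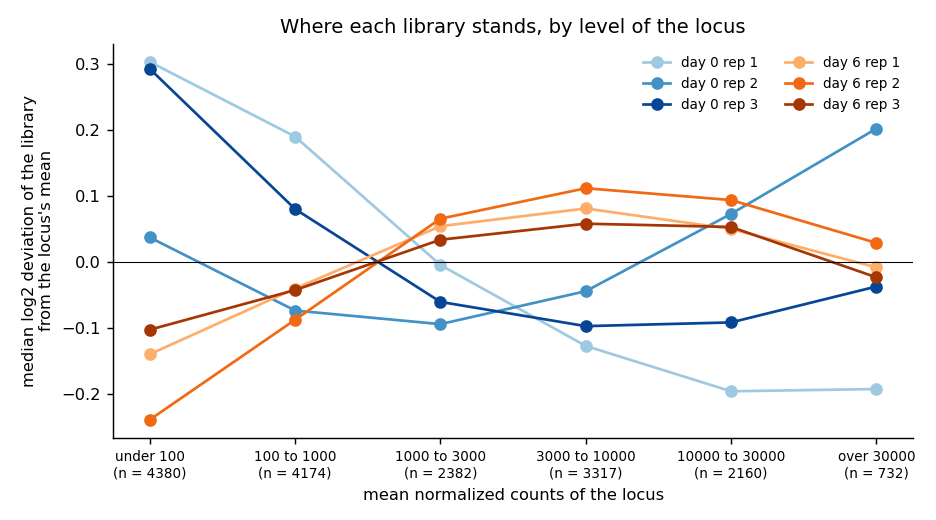
Median log2 deviation of each library from the locus's mean over 6 libraries, by mean normalized counts of the locus, with the number of tested loci under each class (1 line per library, blues for day 0 and oranges for day 6). Day 0 replicate 1 goes from 0.30 at the lowest level to -0.19 at the highest, and day 0 replicate 2 reaches 0.20 there.

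Under other scalings the set changed more in its members than in its size. TMM factors, a trimmed mean of log ratios, gave 292 steady loci, of which 278 were among the 301. Factors from the upper quartile of reads gave 295, and only 166 of them were among the 301. Equal total counts gave 404 with 198 of the 301, reads with no size factor 346 with 188, median ratios over the abundant coding loci 401 with 178, and quantile normalization, which gives each library the same distribution, 447 with 188. As a share of the deposited set, 55.1 to 65.8% were steady under these last 5 scalings, and as a share of the sets they gave, 42.1 to 56.3%. The median ratio of the abundant coding loci went from 1.70 with the deposited values to between 1.61 and 1.71.

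**Figure D5:**
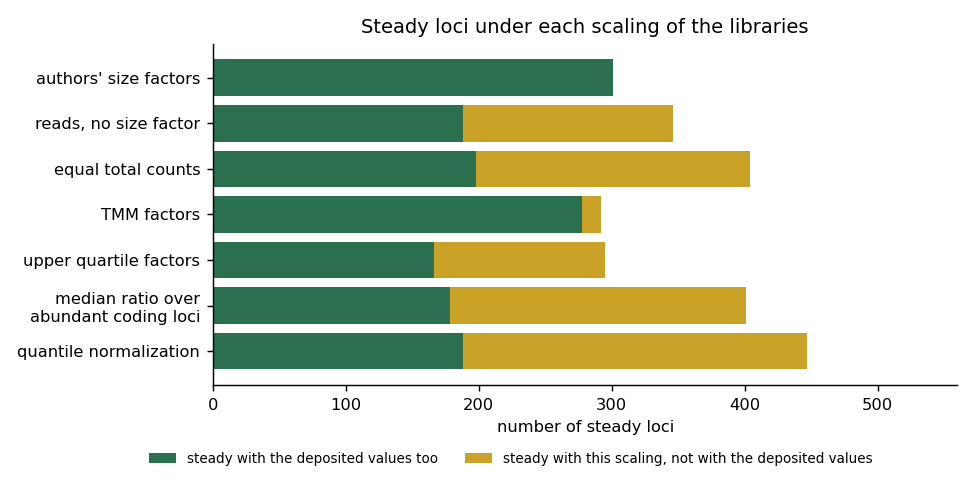
Number of loci that met the rule under each scaling of the libraries. Green parts are loci that were also steady with the deposited values, and gold parts loci that were not. The TMM bar is almost all green, at 278 of 292, while under quantile normalization 259 of 447 loci are gold.

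Small changes of a single factor were enough to move loci across the limit. The steady loci had room for a change of 6.1% in the median (quartiles 2.7 and 10.6%) between their extreme libraries before reaching 1.3. With 1 library's factor shifted by 5% in either direction, the count ranged from 268 to 314 over 12 such shifts, and by 10% from 216 to 344. A day 0 replicate 1 factor 10% lower gave the highest count, 344, and left 244 of the 301, while one 10% higher left 196 in a count of 225. For day 0 replicate 2 the direction was opposite, with 340 at 10% higher and 230 at 10% lower.

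A core of 102 loci was steady with the deposited values and under all 6 other scalings. Of the rest, 62 were steady under 5 of them, 26 under 4, 16 under 3, 36 under 2, 50 under 1 and 9 under none. The core had a median of 19 exons and 10 models and a median of 12270 exonic bases, close to the values of the whole set, and 26 of its loci (25.5%) have 30 or more exons. It includes 4 of the 6 loci of smallest ratio, XLOC_001183, XLOC_008795, XLOC_032200 and XLOC_037310. XLOC_020151 and XLOC_024523 left the limit under quantile normalization, with ratios of 1.35 and 1.36. In the core the day 6 mean was above the day 0 mean with the deposited values for 92 of 102 loci, against 54.8% of the 301 and 55.6% of all abundant coding loci, and the median ratio of stage means was 1.07. Over all abundant coding loci that median was 1.05. The choice of the core favours such loci. Each of the factor sets used to choose it was above the deposited one in every day 6 library and below it in day 0 replicate 1. Nothing is therefore read from the count of 92.

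The 9 loci steady with the deposited factors alone were each lower at day 6, by ratios of stage means of 0.835 to 0.885, and their median deviation in day 0 replicate 1 was 0.22 on the log2 scale. Loss under the other factors, which were higher at day 6 and lower in day 0 replicate 1, favours such loci. The pattern is therefore a description only. XLOC_036957 on chromosome 9 (114597949 to 114633420, plus strand) had 19458, 17110 and 17542 normalized counts at day 0 and 15069, 15160 and 15176 at day 6. Its ratio was 1.29 with the deposited factors, 1.31 with TMM factors and 1.54 with median ratios over the abundant coding loci. XLOC_035606 on chromosome 8 (127195225 to 127275783, minus strand) and XLOC_018148 on chromosome 19 (46226883 to 46361000, plus strand) went from 1.297 and 1.277 to 1.55 and 1.53 between those same factors. XLOC_018148 was at 16523 in day 0 replicate 1 and at 12942 to 14168 elsewhere. In the other direction, 4 abundant coding loci outside the set met the rule under all 6 other scalings, with deposited ratios of 1.31 to 1.32.

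Under each scaling tried, steady loci had a higher median number of exons and models than the rest. They had a median of 18 to 20 exons and 9 to 10 models under the alternatives, against 16 and 7 in the remaining abundant coding loci. With median ratios over the abundant coding loci the share went from 12.7% with under 10 exons to 18.8% with 30 or more, and from 11.1% with under 5 models to 20% with 20 or more. By level, the rise with exon number was less even. At means under 15000 the share was 12.6, 11.7, 13.3 and 18.4% over the 4 classes of exon number. Between 15000 and 30000 it was 13.0, 15.2, 17.6 and 15.7%, and above 30000 it was 12.1, 14.7, 15.8 and 23.0%. Spearman's rho between exon number and the ratio was -0.05 with those factors, against -0.14 with the deposited ones. For model number it was -0.09 against -0.13.

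Loci outside the rule were counted in the same way, with no test of the differences. A ratio under 1.3 was found for 8.88% of 1769 coding autosomal loci with means from 5000 to 10000, 5.86% of 3500 from 1000 to 5000 and 1.31% of 3061 from 100 to 1000, where counting error is larger. Of 104 coding loci on X or Y with at least 10000 normalized counts 5 were steady (4.81%), of 35 annotated autosomal loci without a protein identifier 2 (5.71%), and of the 50 largest loci 5 (10%). None of these enters the counts above.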

How the data were processed

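RNA of 6 libraries was poly(A)-selected and sequenced in pairs, per the labels' protocols. The deposited table gives a signal per locus: read counts that the authors divided by 1 size factor per library, read from the values, which are whole multiples of 1 step (100% of values within 0.01 reads). Tools named in the submitters' processing notes are DESeq, HTSeq 0.5.4p3, Cufflinks 2.1.1 and TopHat2 2.0.8, with genome build mm9. Structure was read from the exons of the authors' deposited assembly.

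Members, lists and tests were chosen with earlier results of these data known. Day 6 was compared with day 0 by limma 3.58.1 (R 4.3.3; robust, with a trend) on log2(normalized count + 1), over loci that had 10 or more normalized counts in 3 or more libraries, two-sided with Benjamini-Hochberg adjustment. Fold changes on this scale understate those of low loci. edgeR 4.0.16 and DESeq2 1.42.0 on the recovered reads were alternatives. Alternative factors were scaled to the geometric mean of the deposited ones. Steps were tested on simulated data. Python 3.11.15, pandas 2.3.3, numpy 2.4.6 and matplotlib 3.10.9 were used. Loci were named by rank in ratio, mean, exons, models, span, counts per kilobase, shared sequence, adjacency and loss under other scalings. XLOC_022391 was added after its values were seen. Gene lists by symbol could not be applied. Value columns left unused numbered 0.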

Additional observations from a re-analysis of the deposited data

How the results depend on the processing

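The count of 301 steady loci stayed within 1.5 times under the 7 other scalings and the 24 shifts of a single factor, though its members did not. Of these scalings, median ratios over all loci repeat the deposited factors and could not change the count. It was 106 at a limit of 1.2, 189 with at most 25% between smallest and largest, 551 at 1.4 and 828 at 1.5, 458 with a mean of at least 5000 and 134 with one of at least 20000, and 1419, 934 and 2562 with the limit on stage means, within day 0 or within day 6 alone. With 1 library left out it ranged from 325 to 608, since 5 values spread less than 6. Without day 0 replicate 1 it was 561 and without day 0 replicate 2 it was 608. The median ratio of abundant coding loci, 1.70, was 1.65 with reads and no factor, 1.63 with equal totals, 1.71 with TMM or upper quartile factors, 1.63 with median ratios over these loci and 1.61 with quantile normalization, and 1.53 to 1.70 with 1 library left out.

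Called loci over the table, 7543, were 4955 without day 6 replicate 1, and with 1 library left out ran between 4798 (day 6 replicate 2) and 8353 (day 0 replicate 2). Steady loci called by limma, 0, were 12 with equal totals, 12 with quantile normalization, 11 with median ratios over abundant coding loci (an alternative chosen after seeing the data, as were leaving out a library for the median ratio and recounting exons and models under each scaling), 1 by DESeq2, 5 without day 0 replicate 1 and 14 without day 0 replicate 2, in a range of 0 to 14. Over all tested loci these settings called, in the same order, 7261, 7507, 7211, 8311, 7930 and 8353 of 16533 to 17239 loci. With equal totals, quantile normalization and median ratios over abundant coding loci, every steady locus called was lower at day 6. The median log2 change of the steady loci was then -0.08, -0.09 and -0.08, against 0.02 with the deposited factors. The call by DESeq2 was lower too. Without day 0 replicate 1, 1 was higher and 4 lower, and without day 0 replicate 2, 10 were higher and 4 lower. With a replicate block 7852 loci and 0 steady loci were called. Same-numbered libraries had deviations correlated at 0.18, 0.13 and 0.07, each library best with its own number, and they are not treated as paired. Of 59 named steady loci all kept a ratio under 1.3 with any library left out, as they must, and 279 of 413 values did so under other scalings. The 413 include 59 values with median ratios over all loci, which repeat the deposited factors and so had to stay under 1.3. The limit on the mean keeps counting error near or under 1% of it, so depth was not examined as a limit.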
